A study of Mus musculus with 2 samples.

Results

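Tnfaip3, Tnip1, Tnip2, Cyld, Otulin, Birc2, Birc3 and Zc3h12a code for proteins grouped here as brakes on NF-kB signalling or its inflammatory output. For Birc2 and Birc3 this applies to the alternative NF-kB pathway and not to their ubiquitination of RIPK1, both described below. The genes were chosen by gene symbol, and all 8 were found among the 31053 features of the count matrices. The series compared skin from a mouse with a knock-in of Card14 (Card14KI, labelled Card14 KI +/+) with skin from a wild-type mouse (WT), both C57BL/6 and 12 months old. Full-thickness back skin was dissociated to single cells, and 3' ends of transcripts were counted as unique molecular identifiers (UMIs), so that each UMI stands for 1 captured RNA molecule. The labels do not name the substitution that the knock-in allele carries. Each genotype is 1 mouse and 1 library, so no difference below has a replicate check, no test was made, and all intervals (95%) cover counting error only.

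CARD14 is a scaffold protein of keratinocytes that assembles with BCL10 and the paracaspase MALT1 and leads, through ubiquitin chains and the IKK kinases, to release of NF-kB. Activating variants of human CARD14 are known from psoriasis and pityriasis rubra pilaris. Several of the genes described here are switched on by NF-kB and then damp it, which makes a negative feedback loop. A20, the product of Tnfaip3, edits and binds ubiquitin chains on signalling proteins; its partners ABIN1 (Tnip1) and ABIN2 (Tnip2) bind ubiquitin and recruit it. CYLD and OTULIN are deubiquitinases, and OTULIN cuts only linear chains. The ligases cIAP1 (Birc2) and cIAP2 (Birc3) ubiquitinate RIPK1 and keep the kinase NIK, which drives the alternative NF-kB pathway, at low levels. Regnase-1 (Zc3h12a) is an RNase that degrades transcripts of inflammatory genes. MALT1 is known to cut A20, CYLD and Regnase-1.

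In the GENCODE vM21 annotation of GRCm38, all 8 are protein-coding genes. Tnfaip3 lies at chr10:19000910-19015657, Tnip1 at chr11:54910785-54962917, Tnip2 at chr5:34496087-34513991 and Zc3h12a at chr4:125118423-125127840, all on the minus strand. Otulin is at chr15:27542635-27630693 on the minus strand and Cyld at chr8:88697028-88751945 on the plus strand. Birc2 (chr9:7818227-7837064) and Birc3 (chr9:7848699-7873186) are neighbours on the minus strand with 11634 bases between them. The promoters of Tnfaip3, Tnip1 and Zc3h12a are shown because the first and the last of these had the higher keratinocyte levels in Card14KI described below and Tnip1 did not. Each line holds 130 bases upstream of the RefSeq transcription start in the gene's direction (GRCm38.p6, minus strand), with matches to either of the motifs named below in capitals. For Tnfaip3 the GENCODE gene starts further upstream than the RefSeq start, so its printed bases lie inside the GENCODE gene.
Tnfaip3 (chr10:19015411-19015540): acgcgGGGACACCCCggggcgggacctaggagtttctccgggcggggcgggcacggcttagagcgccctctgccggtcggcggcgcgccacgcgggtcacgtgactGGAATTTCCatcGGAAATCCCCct
Tnip1 (chr11:54962941-54963070): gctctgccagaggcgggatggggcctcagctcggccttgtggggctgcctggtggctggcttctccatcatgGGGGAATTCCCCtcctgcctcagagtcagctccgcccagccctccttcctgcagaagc
Zc3h12a (chr4:125127882-125128011): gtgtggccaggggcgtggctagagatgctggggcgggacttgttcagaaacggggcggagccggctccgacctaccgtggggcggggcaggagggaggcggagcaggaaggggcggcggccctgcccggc
The letters GGAANNNCC were searched on both strands in the 250 bases upstream of each start, as was the NF-kB consensus, which overlaps them. These letters were chosen after the promoters had been read. GGAANNNCC was present for 4 of the 8 genes (Tnfaip3, Tnip1, Cyld and Birc2) and for 17.6% of 27025 genes (15.7% of their 32851 promoter windows of the same length). The consensus was present for 3 of the 8 (Tnfaip3, Tnip1 and Cyld) and for 8.23% of genes (7.25% of windows). Tnfaip3 had GGAATTTCC at 24 to 16 bases and GGAAATCCCC at 12 to 3 bases before its RefSeq start, and Tnip1 had the palindrome seen in its line at 58 to 47 bases. A match is a description of letters and not a measured binding site, and no match was found in the windows of Zc3h12a, Birc3, Tnip2 or Otulin.

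The Card14KI library held 3348 cell barcodes with 41460580 UMIs and the WT library 5016 barcodes with 54816411 UMIs. After filters on genes detected, mitochondrial share and doublet score, 2835 Card14KI and 4161 WT cells were kept, with medians of 6875 and 7344 UMIs per cell, and 2 barcodes occurred in both libraries. Cells were placed in classes by marker genes (for example Krt5 and Krt14 for basal, Krt1 and Krt10 for spinous keratinocytes), which left 82 Card14KI and 213 WT cells mixed and 46 and 59 with no class. Spinous and granular cells together are called suprabasal. The counts cannot check the knock-in allele itself; Card14 was detected in both genotypes, at 24.1 CPM in Card14KI and 17.2 CPM in WT over all keratinocytes (ratio 1.401) and a ratio of 0.816 in suprabasal cells.
The keratinocyte classes differed in make-up: there were 219 Card14KI against 149 WT basal cells, 372 against 203 suprabasal cells, 27 against 157 outer root sheath or companion layer cells, and 1 against 154 inner root sheath or hair shaft cells. Basal cells had a median of 29492 UMIs in Card14KI and 10757 in WT, and their median spinous marker score was 1.94 in Card14KI and 0.567 in WT (mean over markers of ln(1 + UMIs per 10000)), so the cells called basal in Card14KI also carried spinous transcripts. Immediate early and heat shock genes, which also respond to tissue dissociation, had a median score of 1.91 in Card14KI and 1.31 in WT basal cells, 1.69 and 1.62 in suprabasal cells, and 1.69 and 1.21 in all keratinocytes. Levels below are CPM, the UMIs of a gene scaled to a fixed total of UMIs in its class, and ranks and counts of classes are over the 10 classes with at least 50 cells in each library.

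Tnfaip3 was higher in Card14KI than in WT epidermis. Across all keratinocytes it had 268 CPM in Card14KI and 102 CPM in WT, a ratio of 2.64 (2.51 to 2.77) from 5829 and 2237 UMIs. Because WT keratinocytes held more hair follicle cells, levels within classes are the closer comparison. In basal cells, the proliferative layer, the level was 292 CPM in Card14KI and 133 CPM in WT (ratio 2.19, 1.98 to 2.43). In suprabasal cells it was 341 CPM in Card14KI and 236 CPM in WT (ratio 1.45, 1.35 to 1.55). Within the suprabasal cells the spinous layer had 388 CPM in Card14KI and 274 CPM in WT (ratio 1.41, 1.31 to 1.52), while the cornifying granular cells had 172 and 168 CPM (ratio 1.03, 0.880 to 1.204). Genes past 1.5-fold higher in Card14KI with an interval above 1 made up 9.18% of genes with at least 50 UMIs in all keratinocytes, 5.65% in basal, 8.77% in suprabasal and 4.23% in spinous cells. Tnfaip3 was past that line in all keratinocytes and in basal cells, not in suprabasal or spinous cells.

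More keratinocytes held Tnfaip3 transcripts as well: 487 of 819 Card14KI cells (59.5%) and 322 of 902 WT cells (35.7%) had at least 1 UMI. In basal cells 42.0% of Card14KI and 17.4% of WT cells held 5 or more. With every cell thinned to 2000 UMIs, 25.5% of Card14KI and 12.8% of WT keratinocytes had one, as did 28.0% of Card14KI and 16.3% of WT basal cells and 32.4% and 27.2% of suprabasal cells. Sebocytes had the lowest level of the 10 classes with at least 50 cells in each library, at 19.4 CPM in Card14KI and 12.5 CPM in WT; 3.05% of Card14KI and 1.78% of WT sebocytes had a UMI after thinning, at medians of 23273 and 25199.5 UMIs per cell before it. WT inner root sheath or hair shaft cells, of which Card14KI had 1 cell, were lower still, at 7.19 CPM and 1.32% after thinning. No class is known to lack Tnfaip3, so these values stand in for a background level.

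The keratinocyte ratio of Tnfaip3 was not uniform over the cells. When cells were divided into 3 tiers by their immediate early and heat shock score, the Card14KI to WT ratio in basal cells was 2.06 in the low tier, 3.04 in the middle and 1.30 in the high tier. In suprabasal cells it was 2.48, 1.48 and 1.17 from the low to the high tier, and in spinous cells 3.06, 1.97 and 1.21. In these classes the ratio lay above 1 in each tier and nearest to 1 in cells with the highest early gene score. Granular cells gave 3.21, 1.27 and 0.877, and keratinocytes with sebaceous genes 4.09, 0.681 and 0.936, with intervals that held 1 in each of these tiers. By tiers of UMIs per cell, the basal ratio was 1.38 (0.878 to 2.17), 1.17 (0.959 to 1.42) and 2.72 (2.38 to 3.13) from shallow to deep cells. Only the deep basal tier had an interval above 1. The suprabasal ratio was 0.636 (0.501 to 0.809) in the shallow tier, 1.39 in the middle and 1.72 in the deep tier. With tiers set within each layer, it was 1.09 (0.786 to 1.54), 1.38 and 1.52 in spinous cells. In granular cells it was 0.541 (0.325 to 0.896), 1.29 and 1.49. By tiers of spinous marker score, basal cells gave 1.16 (0.692 to 1.92), 2.25 (1.87 to 2.72) and 1.64 (1.44 to 1.87). Thus among basal cells with the fewest spinous transcripts the interval held 1. The part of early gene activity, depth and spinous transcripts in the difference was not tested.

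Outside the interfollicular epidermis the Tnfaip3 ratio differed in size and direction between classes. Sebocytes, at the levels given above, had a ratio of 1.55 (1.11 to 2.19) from 93 UMIs in Card14KI and 60 in WT. By early gene tier from low to high, the sebocyte ratio was 1.10 (0.161 to 6.50), 0.870 (0.285 to 2.66) and 1.42 (0.985 to 2.08). Each of these intervals held 1. Fibroblasts had 163 CPM in Card14KI and 128 CPM in WT (ratio 1.28, 1.197 to 1.37). By early gene tier the fibroblast ratio was 3.30, 1.29 and 0.811 from low to high. The make-up of the fibroblasts also differed, with Col1a1 at 2721 CPM in Card14KI and 10118 CPM in WT. Clusters of fibroblasts ran between 43 Card14KI against 387 WT cells and 366 against 179. The part of this make-up was not tested, here or in the fibroblast ratios of the other genes below. Upper hair follicle cells had 83.9 and 79.5 CPM (ratio 1.06, 0.843 to 1.32), and keratinocytes with sebaceous genes 77.4 and 61.6 CPM (ratio 1.26, 0.985 to 1.603). Endothelial cells, most of them lymphatic (85.7% of Card14KI and 85.9% of WT cells had a Prox1 UMI), had 64.9 CPM in Card14KI and 38.4 CPM in WT (ratio 1.69, 1.14 to 2.52), but with doublets kept the difference turned round, to -0.0745 on the log2 scale, and after thinning 4.76% of Card14KI and 8.22% of WT cells had a UMI. Their early gene score was 1.90 in Card14KI and 1.30 in WT; its part was not tested.
T cells and innate lymphocytes held the highest Tnfaip3 levels of the 10 classes in both genotypes, and here Card14KI was lower, with 924 CPM against 1333 CPM in WT (ratio 0.693, 0.622 to 0.772). The share of these cells with 5 or more Tnfaip3 UMIs was 29.8% in Card14KI and 43.4% in WT. At 2000 UMIs per cell 74.4% of Card14KI and 78.7% of WT cells had one. The ratio was 0.742, 0.785 and 0.769 from the low to the high early gene tier. The make-up of the lymphocytes also differed, with Cd8a found in 18.3% of Card14KI and 8.42% of WT cells and Gata3 in 33.6% and 46.8%, and its part was not tested. Mononuclear phagocytes had 314 CPM in Card14KI and 355 CPM in WT, with an interval of the ratio of 0.724 to 1.07. The order of levels was close in both genotypes: lymphocytes first, then spinous cells and phagocytes, whose intervals did not overlap in either genotype, then basal and granular cells and fibroblasts, with the hair follicle, endothelial cells and sebocytes last. Spinous cells stood above phagocytes in Card14KI and below them in WT. Basal cells came next after phagocytes in Card14KI, with overlapping intervals, and after granular cells in WT, where their interval overlapped that of fibroblasts. The intervals of granular cells and fibroblasts in Card14KI overlapped, as did those of upper hair follicle cells and keratinocytes with sebaceous genes in both genotypes.

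Zc3h12a, the RNase gene, was higher in Card14KI in more of the 10 classes than any other of the 8 genes. All keratinocytes had 76.3 CPM in Card14KI and 32.5 CPM in WT (ratio 2.35, 2.15 to 2.57). Basal cells had 71.0 CPM in Card14KI and 33.1 CPM in WT (ratio 2.14, 1.75 to 2.65). Suprabasal cells had 93.6 CPM in Card14KI and 66.9 CPM in WT (ratio 1.398, 1.23 to 1.59). Granular cells had 98.9 and 42.7 CPM (ratio 2.32, 1.78 to 3.04), and the ratio in upper hair follicle cells was 2.34 (1.72 to 3.22). Spinous cells had 92.1 CPM in Card14KI and 80.7 CPM in WT, with an interval of the ratio from 0.989 to 1.32, so the layer with the larger Tnfaip3 difference had no clear Zc3h12a difference, and the granular layer was the other way about. No test of these differences between layers was possible.
Among gland and stromal cells, sebocytes had 35.4 CPM of Zc3h12a in Card14KI and 15.2 CPM in WT (ratio 2.33, 1.76 to 3.11), and keratinocytes with sebaceous genes had 33.0 and 15.4 CPM (ratio 2.14, 1.39 to 3.36). Fibroblasts had 28.2 and 18.8 CPM (ratio 1.496, 1.26 to 1.77). Endothelial cells had the largest Zc3h12a ratio of the 10 classes, 4.37 (2.24 to 9.32), from 49 UMIs in Card14KI and 11 in WT. In lymphocytes (99.3 and 90.2 CPM) and phagocytes (75.7 and 81.3 CPM) the intervals of the ratio held 1. Of the 10 classes, Zc3h12a was higher in Card14KI in 9, with an interval above 1 in 7. The share of genes past 1.5-fold higher was 15.7% in granular, 4.85% in upper hair follicle, 3.5% in sebocytes, 4.12% in keratinocytes with sebaceous genes, 5.36% in fibroblasts and 5.67% in endothelial cells.
By early gene tier from low to high, the Zc3h12a ratio was 2.73, 2.38 and 1.42 in basal cells and 2.68, 1.35 and 1.09 in suprabasal cells. By depth tier from shallow to deep it was 2.12, 1.94 and 2.20 in basal cells and 1.04 (0.682 to 1.63), 1.47 and 1.49 in suprabasal cells. By spinous marker tier of the basal cells it was 1.86, 2.22 and 1.77. No depth or spinous tier of the basal cells had a ratio under 1.77, though the intervals of the shallow tier (0.986 to 4.85) and of the low spinous tier (0.861 to 4.13) held 1. The high early gene tier again had the ratio nearest to 1. Their part was not tested.

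Birc3 was higher in Card14KI keratinocytes, at 17.9 CPM against 8.04 CPM in WT (ratio 2.22, 1.86 to 2.67). In suprabasal cells it had 21.2 CPM in Card14KI and 9.61 CPM in WT (ratio 2.20, 1.61 to 3.06), which made it the 1 gene of the 8 past 1.5-fold there. Spinous cells had 21.6 and 12.7 CPM (ratio 1.70, 1.21 to 2.45). The granular ratio was 4.67 (2.14 to 11.6), but from 37 UMIs in Card14KI and 8 in WT, under the minimum of 50 used for calls. Basal cells had 18.0 CPM in Card14KI and 12.3 CPM in WT (ratio 1.46, 1.03 to 2.12). Of the 10 classes, Birc3 was highest in phagocytes, at 121 CPM in Card14KI and 149 CPM in WT, with an interval of the ratio that held 1. The 28 Card14KI and 44 WT neutrophils had 120.03 and 376 CPM. Fibroblasts had 74.96 and 55.2 CPM (ratio 1.36, 1.23 to 1.502).
Its neighbour Birc2 did not follow it. All keratinocytes had 19.2 CPM of Birc2 in Card14KI and 20.03 CPM in WT, and basal cells were lower in Card14KI, at 20.9 CPM against 32.8 CPM (ratio 0.637, 0.499 to 0.816). It was the 1 gene of the 8 among the 8.41% of basal genes past 1.5-fold lower. By spinous marker tier from low to high, the basal Birc2 ratio was 0.530 (0.271 to 0.987), 1.13 (0.741 to 1.75) and 0.616 (0.414 to 0.934). The part of spinous transcripts was not tested. Suprabasal cells had 15.1 and 10.7 CPM (ratio 1.41, 1.03 to 1.96), a direction that turned round to -0.11 on the log2 scale when each cell had the same weight. Fibroblasts had 60.9 and 49.8 CPM (ratio 1.22, 1.10 to 1.37). Lymphocytes had the highest Birc2 levels of the 10 classes, 302 CPM in Card14KI and 270 CPM in WT, with an interval that held 1.

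Among the deubiquitinases, Cyld was lower in Card14KI basal cells, at 29.7 CPM against 40.9 CPM in WT (ratio 0.725, 0.586 to 0.900). By spinous marker tier from low to high, the basal Cyld ratio was 0.690 (0.375 to 1.23), 0.985 (0.689 to 1.42) and 0.719 (0.514 to 1.02). Each of these intervals held 1, and the part of spinous transcripts was not tested. Cyld was also lower in Card14KI endothelial cells, at 28.9 CPM against 56.3 CPM in WT (ratio 0.514, 0.327 to 0.795). It was the 1 of 7 genes with enough UMIs in endothelial cells to lie past 1.5-fold lower, as 11.9% of all genes did. By early gene tier from low to high, this ratio was 0.274 (0.00671 to 1.65), 0.937 (0.424 to 2.05) and 0.540 (0.263 to 1.12). Each of these intervals held 1. The make-up of the endothelial cells also differed, with Lyve1 found in 47.1% of Card14KI and 76.5% of WT cells. The part of early genes and make-up was not tested. Granular cells had 24.7 CPM of Cyld in Card14KI and 12.5 CPM in WT (ratio 1.98, 1.19 to 3.38). Fibroblasts had 39.96 and 32.9 CPM (ratio 1.22, 1.06 to 1.39). Of the 10 classes, Cyld was highest in lymphocytes, with 130 CPM in Card14KI and 120 CPM in WT.
Otulin had 39.6 CPM in Card14KI and 29.2 CPM in WT over all keratinocytes (ratio 1.36, 1.22 to 1.51), but in each of the 10 separate classes the interval of its ratio held 1. Its levels ran between 12.1 CPM in granular cells and 76.5 CPM in lymphocytes in Card14KI, and between 13.5 and 65.9 CPM in the same classes in WT.

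Neither ABIN gene was past 1.5-fold with at least 50 UMIs in any of the 10 classes. Tnip1 had 17.3 CPM in Card14KI and 15.1 CPM in WT keratinocytes (ratio 1.15, 0.988 to 1.33), and the interval held 1 in all 10 classes. Its highest level over the 10 classes was in lymphocytes, 105 CPM in Card14KI and 77.6 CPM in WT, followed by granular cells with 37.3 and 30.7 CPM. Tnip2 was the least detected of the 8 in keratinocytes, with 176 UMIs in Card14KI and 120 in WT (ratio 1.48, 1.17 to 1.89). Of the 10 classes, its interval lay above 1 only in upper hair follicle cells (ratio 2.42, 1.09 to 5.92), from 24 and 9 UMIs. Granular cells had 3 Tnip2 UMIs in each genotype.

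Counted together, 7 of the 8 genes were higher in Card14KI in all keratinocytes, where 42.3% of all genes were, and 3 (Tnfaip3, Zc3h12a and Birc3) were past 1.5-fold higher. None was among the 14.3% of genes past 1.5-fold lower. In basal cells 5 of 8 were higher, against 40.1% of all genes, and 2 were past 1.5-fold (Tnfaip3 and Zc3h12a). In suprabasal cells all 8 were higher, but so were 68.9% of all genes, and only Birc3 was past 1.5-fold. With each cell given the same weight 5 of 8 were higher there, and Birc2, Cyld and Tnip1 were lower. None was among the 3.5% past 1.5-fold lower. The median log2 ratio of the 8 genes was 0.28 in all keratinocytes, 0.14 in basal and 0.22 in suprabasal cells, beside -0.04, -0.06 and 0.10 for all genes. In lymphocytes none of the 7 genes with enough UMIs was past 1.5-fold in either direction, where 4.27% of all genes were higher and 7.52% lower. In phagocytes none of 6 was past 1.5-fold higher, against 5.48% of all genes. By cell, Card14KI keratinocytes held UMIs of a median of 3 of the 8 genes and WT keratinocytes of 2, and 64 of 819 Card14KI and 185 of 902 WT cells held none. The medians were 4 in Card14KI and 2 in WT basal cells. They were 3 in both genotypes in suprabasal cells and 2 in both in granular cells. These counts are not matched for depth, and basal cells had a median of 29492 UMIs in Card14KI and 10757 in WT. After thinning, the mean number of the 8 genes held per cell was 0.681 in Card14KI and 0.574 in WT basal cells. It was 0.673 and 0.539 in suprabasal cells, 0.593 and 0.437 in granular cells, and 0.627 and 0.389 in all keratinocytes.

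Other genes of the pathway are given over all keratinocytes and then within classes. For scale, 42.3% of all genes were higher in Card14KI in all keratinocytes, 40.1% in basal and 68.9% in suprabasal cells. A higher level in suprabasal cells was thus shared by most genes. Past 1.5-fold higher were 9.18%, 5.65% and 8.77% of all genes, and 4.23% in spinous cells. Past 1.5-fold lower were 14.3% in all keratinocytes, 8.41% in basal and 3.5% in suprabasal cells. All 6 IkB genes with at least 50 UMIs, which bind NF-kB or adjust its transcription, were higher in Card14KI keratinocytes, 5 of them past 1.5-fold, among them Nfkbid (ratio 2.39, 1.83 to 3.15), Bcl3 (2.31, 1.97 to 2.70) and Nfkbiz (2.19, 2.09 to 2.29). Within classes fewer were past that line: 2 of 5 in basal, 1 of 5 in suprabasal and 1 of 5 in spinous cells, and the summed IkB level in suprabasal cells was 2058 CPM in Card14KI and 2074 CPM in WT. All 5 NF-kB subunit genes were higher, with Rel at 2.22 (2.09 to 2.35) and Relb at 2.01 (1.68 to 2.41). In basal cells 4 of the 5 and in suprabasal cells 5 of the 5 subunit genes were higher, with 2 and 3 past 1.5-fold. Of the kinases and adaptors leading to NF-kB, 6 were higher and 6 lower, and Traf1 alone was past 1.5-fold, at 1.01 CPM in Card14KI and 3.22 CPM in WT (3.19-fold lower, 1.95 to 5.41). In basal cells 10 of 11 of these genes were lower and none was past 1.5-fold.
The A20 relatives differed from one another. Of 10 genes for linear ubiquitin ligase subunits and partners of A20, CYLD and OTULIN, 5 were higher and 5 lower over all keratinocytes and 4 were higher and 6 lower in basal cells, and Tnip3, which codes for ABIN3, had 101 UMIs in Card14KI and 7 in WT keratinocytes (ratio 14.6, 6.83 to 37.2). Of the RNase and RNA decay genes related to Zc3h12a, 4 of 6 were higher; Zc3h12c had 28.5 CPM in Card14KI and 6.403 CPM in WT (ratio 4.45, 3.70 to 5.38) and reached 6.20 (3.85 to 10.6) in basal cells. Of the same 6 genes, 4 were higher in basal and 3 in suprabasal cells, and Zc3h12c was the 1 past 1.5-fold in each. Of transcripts known to be degraded by Regnase-1, 5 of 6 were higher in Card14KI, with Ptgs2 at a ratio of 2.63 (2.32 to 2.99) and Il6 at 1.75 (1.19 to 2.59). Nfkbiz and Rel are on this list as well as among the IkB and subunit genes above, so the lists are not separate. In basal cells 4 of 5 of the Regnase-1 targets were higher, and Tnfrsf4 was lower (ratio 0.660, 0.509 to 0.860). In suprabasal cells 5 of 5 were higher. Among the immediate early and heat shock genes 13 of 16 were higher, including Nr4a1 (2.50, 2.39 to 2.60), while Hsph1 was lower (1.68-fold, 1.52 to 1.84). The count was 13 of 16 in basal cells, 9 of 16 in suprabasal and in spinous cells (median log2 ratio 0.11 and 0.02) and 5 of 16 in upper hair follicle cells. Of all genes, 51.2% were higher in spinous and 46.3% in upper hair follicle cells.

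Over the 20 values of 10 classes in both genotypes, the gene whose log2(CPM + 10) followed that of Tnfaip3 most closely was Sik1 (Pearson's r = 0.94 among 6050 genes searched), followed by Mbp (0.91), Rgs2 (0.90), Smox (0.90) and Fnbp1 (0.89). Classes of 1 library share that library's processing, so these are descriptions with no test. Cyld was most like Birc2 (0.94), with Chd2 and Rsbn1 next, and Birc2 most like Uhrf2 (0.97), with Gpbp1 and Nsd3 next. Birc3 was nearest to Rbpj (0.94), Lsp1 and Sp100, Zc3h12a to Rel (0.85), Arf6 and Sema4a, and Otulin to Mdp1 (0.89), Ptpn2 and Pfn1. Tnip1 was nearest to Ubald2 (0.88), Lin54 and Il18r1, and Tnip2 to Ppt1 (0.96), Capza2 and Mob1a. Between Tnfaip3 and Zc3h12a the correlation was 0.76.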

How the data were processed

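Each genotype is 1 mouse, 1 library of full-thickness back skin digested for 73 min. The authors deposited UMI counts per gene and cell (10x 3' chemistry, mm10) from Cell Ranger 6.0.2 per the submitters' processing notes, or 5.0.0 per the file headers. Cells with under 500 genes or over 20% mitochondrial UMIs were left out (435 Card14KI, 681 WT). The automatic Scrublet threshold marked 4 Card14KI and 2 WT cells and had not worked, so the 78 and 174 highest doublet scores, at 0.8% per 1000 cells, were removed. Python 3.11.15, scanpy 1.11.5 and scipy 1.17.1 were used.

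A cell took the broad class of its highest marker score (at least 0.3, with 3 markers detected, and no other class above 0.5 of it). Keratinocytes and sebocytes were not held to that 0.5 margin against each other. For keratinocyte classes such as basal, each score was divided by its 95th percentile among keratinocytes, and the highest quotient gave the class. A sebocyte score of at least 0.5 put a keratinocyte in the class with sebaceous genes instead. These rules were set after seeing the data, and 185 Card14KI and 161 WT keratinocytes lay within 20% of a limit. UMIs were summed per class and library. Levels have exact Poisson intervals, ratios exact conditional binomial intervals and shares Clopper-Pearson intervals. Where no cell of a library has a UMI, the upper limit (3 counts) is 0.106% of kept cells in Card14KI and 0.0721% in WT. A gene was called past 1.5-fold with an interval without 1 and at least 50 UMIs. With 1 library per genotype no test or adjusted p exists. The genes, gene lists and markers were chosen with earlier results of these data known. The genes named from the other lists were, per list, up to 3 per direction past the same line in all, basal or suprabasal keratinocytes, and from these the text gives a selection; nearest genes were the 5 best for Tnfaip3 and the 3 best for the others.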

Additional observations from a re-analysis of the deposited data

Results flagged for a closer look

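Among the 10 classes with at least 50 cells in each library, 3 of the 8 genes had ratios of Card14KI over WT on opposite sides of 1 in different classes, with counting intervals that leave out 1 on both sides. Tnfaip3 had a ratio of 2.19 in basal keratinocytes and 0.693 in T cells and innate lymphocytes. Cyld had 1.98 in granular keratinocytes and 0.514 in endothelial cells, where the interval held 1 within each early gene tier. Birc2 had 1.22 in fibroblasts and 0.637 in basal keratinocytes, where the middle spinous marker tier had 1.13 (0.741 to 1.75). None of these differences between classes was tested, because each class has 1 library per genotype.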

How the results depend on the processing

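Values here are log2 ratios of CPM + 10, Card14KI over WT. The Tnfaip3 difference was 1.32 in all keratinocytes, 1.08 in basal and 0.52 in suprabasal cells, and stayed above 0 under each alternative run, though its size moved. With each cell given the same weight it was 0.95, 0.61 and 0.39, and with early gene tiers given the same weights 0.68, 0.64 and 0.35. With the same depth weights, an alternative chosen after seeing the data, it was 1.03, 0.70 and 0.27. In all keratinocytes it was 1.39 with a pseudocount of 1 CPM, 0.56 with the same subclass weights and 1.45 without cells near a gate (chosen after seeing the data). In basal cells it was 0.78 with classes from clusters and 0.76 with the same spinous marker weights (chosen after seeing the data). In suprabasal cells it was 0.37 with size factor scaling and 0.41 with the same subclass weights. With each cell given the same weight, 5 of the 8 genes, not 8, were higher in suprabasal cells. The cause was not tested.

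Among values whose interval left out 1, and among shares of cells, directions turned for Tnfaip3 in endothelial cells (-0.0681 with no cell filter and -0.0745 with doublets kept), for Birc2 in suprabasal cells (-0.11 with each cell given the same weight), and, in shares of basal cells with a UMI after thinning, for Tnip1 (-2.43 percentage points) and Birc3 (-0.0112 points). Values whose interval held 1 also changed sign: over the alternatives Cyld ran between -0.14 and 0.20 in all and between -0.21 and 0.15 in suprabasal keratinocytes, Birc2 between -0.27 and 0.03 in all keratinocytes, Tnip1 between -0.26 and 0.05 in basal and between -0.06 and 0.16 in suprabasal cells, Tnip2 between -0.03 and 0.10 in basal cells, and Zc3h12a between -0.02 and 0.26 in lymphocytes. Tnfaip3 in lymphocytes ran between -0.58 and -0.38. In granular cells Tnfaip3 ran between -0.48 and 0.14 and Zc3h12a between 0.45 and 1.25. In upper hair follicle cells Tnfaip3 ran between -0.31 and 0.37. Of 39 alternative values for the Tnfaip3 level in all, basal and suprabasal keratinocytes, 16 moved beyond the counting interval. So did 16 of 417 further levels, with 3 more reversed. Counts of higher genes are not in these totals. The same subclass weights gave no value for basal cells, which are 1 subclass. No paired analysis was possible because each genotype has 1 sample. Classes with few UMIs, such as endothelial and granular cells, limit the precision for Tnip2, Birc2 and Birc3.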

Other observations

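In classes with under 50 cells in a library, chosen after their values were seen, Birc3 had 7 UMIs in Card14KI and 29 in WT neutrophils (ratio 0.320, 0.118 to 0.746). Cyld had 7 UMIs in Card14KI and 37 in WT B or plasma cells (ratio 0.385, 0.145 to 0.875). In outer root sheath or companion layer cells Zc3h12a had 30 and 67 UMIs (ratio 2.31, 1.45 to 3.603), Tnfaip3 66 and 218 UMIs (ratio 1.56, 1.17 to 2.07) and Tnip1 2 and 52 UMIs (ratio 0.198, 0.0234 to 0.754). With 27 Card14KI and 157 WT cells of that class, these are values of few cells and no explanation was examined.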
